A study of Mus musculus with 6 samples.

Results

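Fatty acid oxidation was examined through 37 genes, taken by name from the 54532 genes of the deposited tables. They comprise 6 genes of fatty acid uptake and activation, 16 genes of mitochondrial beta-oxidation, 11 genes of peroxisomal oxidation and 4 genes whose products work in both organelles. All 37 passed the filter on low counts, which left 15816 genes for testing. RNA was sequenced from kidney tissue of 3 WT mice and 3 Trpm2-/- mice (TRPM2-KO in the sample labels, replicates 1, 2 and 4). All mice are given as strain C57BL/6J and 6 to 8 weeks old in the labels, while the methods give an older age range for cisplatin-treated mice. Trpm2 encodes a calcium-permeable cation channel that opens under oxidative stress, and the Trpm2-/- allele lacks coding exons but can still give a shortened protein that forms no working channel. Per the methods, the WT mice were bought and the Trpm2-/- mice came from another institution, so genotype and colony cannot be told apart. Every mouse had received cisplatin at 18 mg/kg 72 h earlier to induce acute kidney injury, and untreated mice were not analysed here. Nothing ties the samples to more than separate kidneys, so the p-values measure the spread between these libraries.

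Fatty acids are a main fuel of the proximal tubule, the nephron segment that reabsorbs most of the filtrate and takes up cisplatin. In mitochondria, long chains enter as carnitine esters and are shortened in rounds of dehydrogenation, hydration, a further dehydrogenation and thiolysis. Peroxisomes shorten very long chains, branched chains and bile acid intermediates with acyl-CoA oxidases that pass electrons to oxygen, and they begin the breakdown of phytanic acid by alpha-oxidation. The nuclear receptor PPAR alpha is known to induce many of these genes.

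The organelle of an enzyme is in part written into its coding sequence. Many peroxisomal matrix enzymes carry an import signal at their C-terminal end, classically serine, lysine and leucine, whereas mitochondrial enzymes are usually imported by an N-terminal signal. To show this difference, the last 30 coding bases (GENCODE annotation, GRCm38, stop codon included) are given for members on which the comparison of the organelles turns, with the last 3 codons before the stop in capitals.
Ehhadh: ttggcaggaccccatagcAGCAAACTGtga
Acox2: ctgatgcaaagctggaaaCCCAAGCTGtga
Scp2: cagcttcagccgggcaaaGCTAAGCTGtga
Crat: ctccagaaccaccccaggGCCAAGCTCtga
Acox3: gtagccgacaggctaaagTCCCAGCTGtag
Hacl1: tttcactggctcacccgtTCTAACATGtga
Acadm: cgtgagcacattgaaaagTATAAAAATtaa
Etfa: gaaatgacagaaatactgAAGAAAAAAtaa
A coding sequence whose last codons are AAA or AAG followed by CTN, TTA or TTG (lysine, then leucine) was found for 5 of the 11 peroxisomal genes and 3 of the 4 genes of both organelles. It was found for 0 of the 16 mitochondrial genes, 0 of the 6 genes of uptake and activation, and 0.799% of 21639 mouse genes with a coding sequence. Ehhadh, Acox2, Scp2 and Crat hold it, and Acox3, Hacl1, Acadm and Etfa do not. Phyh, Acaa1a and Acaa1b, which do not hold it either, are known to be imported into peroxisomes by an N-terminal signal. Other C-terminal endings were not searched, so Acox3 and Hacl1 may still carry an import signal there.

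In Trpm2-/- kidneys, 21 of the 37 genes were lower than in WT kidneys at an adjusted p under 0.05 and 0 were higher (edgeR's quasi-likelihood test, Benjamini-Hochberg adjustment over all genes tested). Of all genes tested, 7.28% were called lower and 4.74% higher. The median log2 fold change was -0.69 over the members and 0.02 over all genes tested. Of the 16 members that were not called, 7 had an unadjusted p under 0.05, and 0 members were higher at that level (0 also in every alternative run, DESeq2 and limma included, at an adjusted p under 0.05). The fitted log2 fold change was below 0 for 37 of 37 members, as for 48.4% of all genes tested, although that of Ehhadh turned to 0.01 with upper-quartile scaling. At the threshold of the study's methods (absolute log2 fold change above 1 and unadjusted p under 0.05), 9 members were lower, against 4.10% of all genes tested, and 0 were higher, against 3.50%. All 3 Trpm2-/- libraries lay below all 3 WT libraries for 28 members, which held for 16.8% of all genes tested, and above them for 0 members, against 16.7%. In kidney tissue, fewer cells of a type and less RNA per cell cannot be told apart. The number called lower was 14 without WT replicate 3, and 13 of the 21 calls were made in all 15 alternatives.

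**Figure D1:**
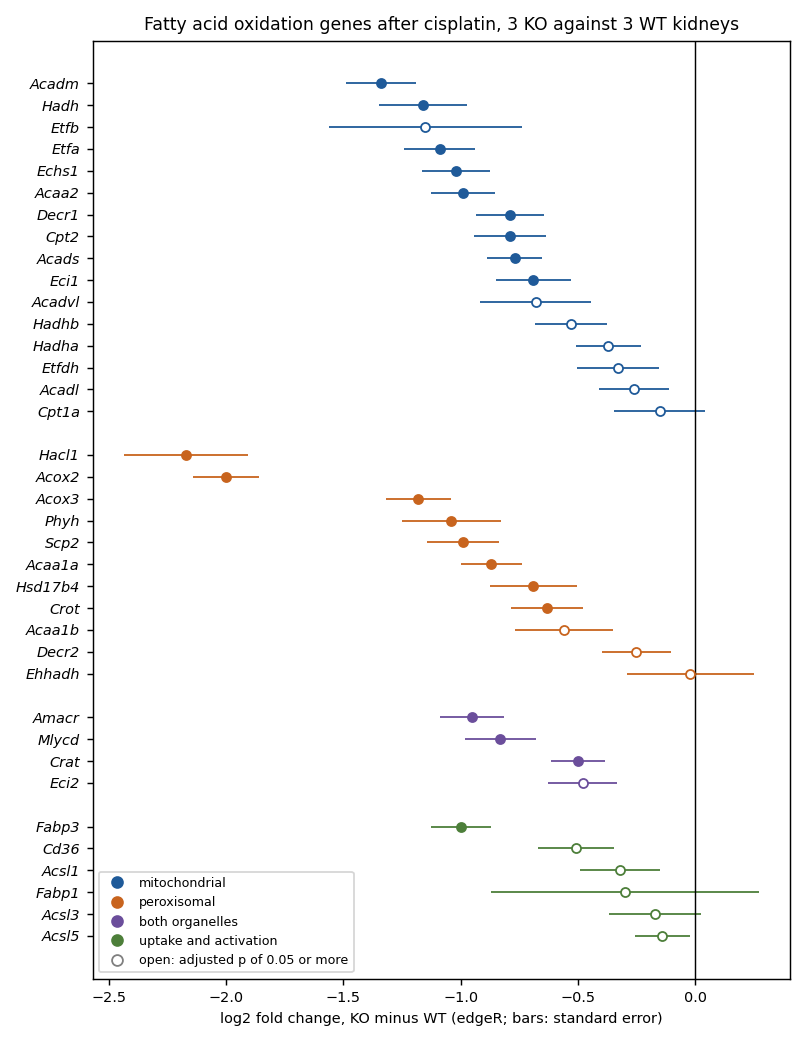
Log2 fold change of each member, Trpm2-/- (KO) minus WT, with bars of 1 SE, in blocks by organelle. Filled points had an adjusted p under 0.05 (edgeR) and open points did not. The points run from -2.17 for Hacl1 to -0.02 for Ehhadh, and both extremes are peroxisomal.

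Libraries held 14053307 to 17150089 counts on genes, so 3 counts equal 0.175 to 0.213 CPM (counts scaled to a common library total, by TMM wherever a gene's level is given). Trpm2 itself had 0.308 to 1.66 CPM in WT and 0.612 to 1.25 CPM in Trpm2-/- libraries, and a count over the whole gene cannot check a deletion of some of its exons. Of 10 proximal tubule markers, 9 were lower with a median log2 fold change of -1.57 over the list, and their summed FPKM (fragments scaled by gene length and library total) was 634 to 810 in WT and 173 to 264 in Trpm2-/- libraries. No proximal tubule marker was at 0 in all libraries. Of 5 injured tubule markers 2 were higher (Krt20 and Sox9), with summed FPKM of 1040 to 1230 and 1480 to 1860. Of the thick ascending limb and distal tubule list 1 of 5 tested was lower, with sums of 250 to 596 and 77.2 to 242 FPKM, and of the collecting duct list 2 of 6, with sums of 709 to 895 and 410 to 477 FPKM. Of the leukocyte list 1 of 6 was lower, with sums of 57.9 to 68.5 and 42.8 to 57.2 FPKM, and of the hepatocyte list 2 of 4 tested, with sums of 59.6 to 120 and 35.3 to 51.0 FPKM. Of the podocyte and endothelial lists 0 of 5 each were called, and both sums were highest in Trpm2-/- replicate 4 (81.4 and 22.5 FPKM, at most 26.5 and 12.8 FPKM in any other library). The adipocyte list had 1 gene tested, not called, with sums of 5.99 to 13.3 and 4.39 to 9.87 FPKM, and the muscle list had 0 genes tested and all 5 under 1 FPKM. Genes of the mitochondrial genome took 4.43% to 4.72% of WT counts and 7.91% to 11.0% of Trpm2-/- counts, and 21 members were called lower without them too. The counts of markers stand against 7.28% called lower and 4.74% called higher over all genes tested. The part of these cell types in the values below was not tested.

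Among the genes of uptake and activation, 1 of 6 was lower, against 7.28% of all genes tested. The median log2 fold change of this group was -0.31. Fabp3, a cytosolic fatty acid carrier best known from muscle, had 71.9, 74.3 and 82.3 CPM in WT and 34.6, 39.3 and 40.7 CPM in Trpm2-/- libraries. The genotypes did not overlap, and the log2 fold change was -1.0 (standard error, SE, 0.128, adjusted p = 0.00263, edgeR). Of the 75-base windows of its exons, 26.0% also occur in other genes, chiefly a pseudogene, so its counts are less certain than those of most members. Cd36, a membrane receptor for long-chain fatty acids, had 326, 382 and 361 CPM in WT and 303, 231 and 215 CPM in Trpm2-/- libraries. These ranges were also separate, but the log2 fold change of -0.51 (SE 0.162) was not called (adjusted p = 0.0705, edgeR), and without Trpm2-/- replicate 1 it was -0.68 (adjusted p = 0.0269, edgeR).

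The acyl-CoA synthetases attach coenzyme A to fatty acids and so commit them to use. Acsl1 had 140, 138 and 180 CPM in WT and 148, 111 and 108 CPM in Trpm2-/- libraries, with a log2 fold change of -0.32 (95% interval -0.70 to 0.06). Acsl3 had 14.9, 17.5 and 17.5 CPM in WT and 18.7, 12.7 and 13.1 CPM in Trpm2-/- libraries, with a log2 fold change of -0.17 (95% interval -0.61 to 0.28). Acsl5 had 156, 166 and 151 CPM in WT and 143, 147 and 140 CPM in Trpm2-/- libraries, with a log2 fold change of -0.14 (95% interval -0.40 to 0.13). None of these 3 was called, and in Acsl1 and Acsl3 Trpm2-/- replicate 1 lay inside or above the WT range.

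Fabp1, the liver-type fatty acid carrier, had few reads in these kidneys. It had 25, 32 and 34 counts in WT and 41, 5 and 28 counts in Trpm2-/- libraries, and the genotypes overlapped. Its log2 fold change of -0.30 (SE 0.571, adjusted p = 0.781, edgeR) turned to 0.17 without Trpm2-/- replicate 2. Fabp1 is a classical target of PPAR alpha, which binds a direct repeat of AGGTCA with 1 base between the copies. Promoter windows from 250 bases before to 50 bases after the start (RefSeq, GRCm38.p6) were available for 32 members, and both strands were searched for AGGTCANAGGTCA. An exact match was found for 0 members and in 0.0396% of 32851 mouse promoters. With at most 1 mismatch in the 12 letters of the repeat, a match was found for 1 member, Fabp1, and in 0.554% of all promoters. The bases before its RefSeq start, at chr6:71199752-71199878 on the plus strand, are shown with that match, which reads on the opposite strand, in capitals.
Fabp1: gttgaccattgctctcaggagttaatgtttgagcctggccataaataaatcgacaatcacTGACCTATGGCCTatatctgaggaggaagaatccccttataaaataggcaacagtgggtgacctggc
A lone AGGTCA, which any match of the exact repeat also contains, was found for 8 members (Phyh, Acadm, Scp2, Cd36, Fabp1, Echs1, Acadvl and Cpt1a) and in 16.3% of all promoters. These are matches of letters and not measured binding.

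In mitochondrial beta-oxidation, 9 of 16 genes were lower, against 7.28% of all genes tested, and the median log2 fold change was -0.78. The genotypes did not overlap for 12 genes, with Trpm2-/- below WT, which held for 16.8% of all genes tested. Acadm, Hadh, Etfa and Echs1 were lower by more than 1 on the log2 scale, whereas Cpt1a, which controls entry, was not called. Cpt1a, the carnitine palmitoyltransferase of the outer membrane (chromosome 19, 3323301 to 3385732), had 313, 367 and 349 CPM in WT and 409, 255 and 264 CPM in Trpm2-/- libraries. Trpm2-/- replicate 1 was above every WT library and the other two were below, and the log2 fold change was -0.15 (95% interval -0.59 to 0.28, adjusted p = 0.658, edgeR). Cpt2, the transferase of the inner membrane, had 206, 233 and 279 CPM in WT and 153, 128 and 135 CPM in Trpm2-/- libraries. The genotypes did not overlap, and the log2 fold change was -0.79 (SE 0.152, adjusted p = 0.0113, edgeR). That call was lost without WT replicate 3 (adjusted p = 0.066, edgeR), and the difference between Cpt1a and Cpt2 was not tested.

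The acyl-CoA dehydrogenases catalyse the first step of each round and divide the work by chain length. Acadm, the medium-chain enzyme (chromosome 3, 153922357 to 153944632), had 562, 713 and 672 CPM in WT and 274, 247 and 250 CPM in Trpm2-/- libraries. The Trpm2-/- mean was 39.5% of the WT mean and the log2 fold change was -1.34 (SE 0.148, adjusted p = 0.0015, edgeR). Acads, the short-chain enzyme, was lower as well, with 164, 171 and 174 CPM in WT, 102, 102 and 94.9 CPM in Trpm2-/- libraries and a log2 fold change of -0.77 (adjusted p = 0.00457, edgeR). The enzymes for longer chains were not called. Acadl, the long-chain enzyme, had 315, 378 and 393 CPM in WT and 342, 281 and 286 CPM in Trpm2-/- libraries, which overlapped (log2 fold change -0.26, 95% interval -0.59 to 0.08). Acadvl, the very-long-chain enzyme, had 167, 181 and 153 CPM in WT and 146, 98.5 and 68.2 CPM in Trpm2-/- libraries, and its log2 fold change of -0.68 (adjusted p = 0.0931, edgeR) was -1.01 without Trpm2-/- replicate 1 (adjusted p = 0.0181, edgeR). Of the exon bases of Acadvl, 42.9% overlap Dvl2 on the opposite strand, which had 11.5 CPM or more in every library.

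**Figure D2:**
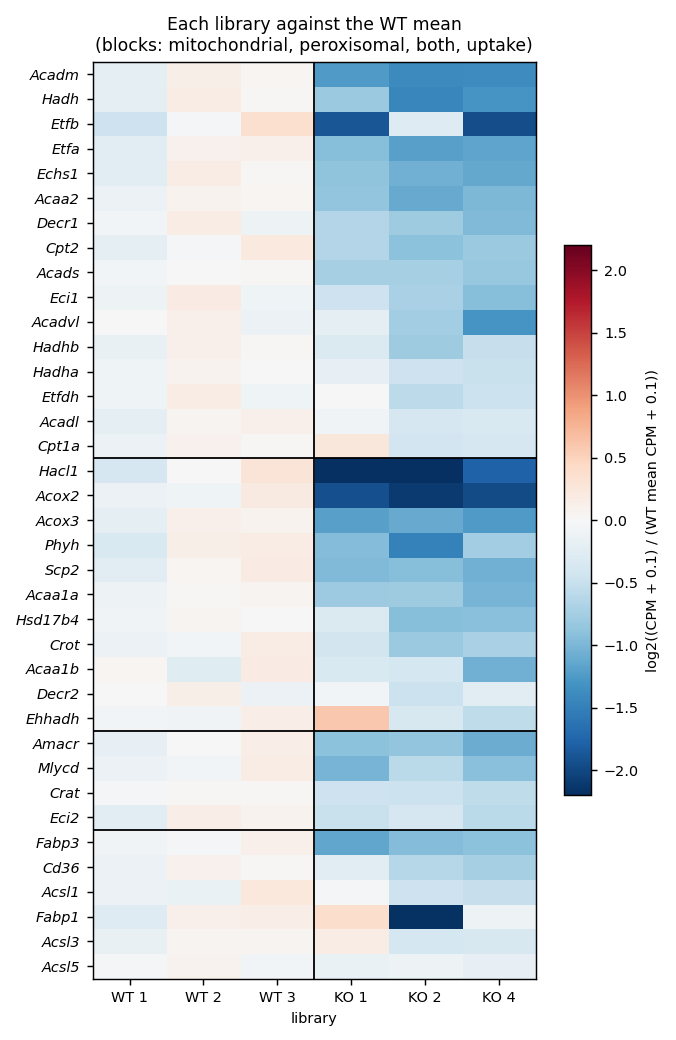
Heat map of each member (rows, in blocks by group) in each library (columns), as the log2 ratio of CPM plus 0.1 to the WT mean CPM plus 0.1, blue below and red above the WT mean. Trpm2-/- replicate 1 is the highest of the 3 Trpm2-/- libraries for 25 of 37 members, and WT replicate 1 is the lowest WT library for 30.

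In the later steps of the round, Echs1, Hadh and Acaa2 were lower, and the subunits of the complex for long chains were not called. Echs1, the short-chain enoyl-CoA hydratase, had 185, 245 and 223 CPM in WT and 118, 105 and 100 CPM in Trpm2-/- libraries (log2 fold change -1.02, adjusted p = 0.0038, edgeR). Hadh, the hydroxyacyl-CoA dehydrogenase for medium and short chains, had 315, 409 and 373 CPM in WT and 207, 136 and 149 CPM in Trpm2-/- libraries (log2 fold change -1.16, adjusted p = 0.00549, edgeR). Acaa2, a thiolase that releases acetyl-CoA, had 350, 406 and 394 CPM in WT and 210, 177 and 192 CPM in Trpm2-/- libraries (log2 fold change -0.99, adjusted p = 0.00338, edgeR). In all 3 genes every Trpm2-/- library was below every WT library. Hadha and Hadhb, the subunits of the trifunctional protein that handles long chains, did not overlap between genotypes either but were not called, with log2 fold changes of -0.37 (adjusted p = 0.121, edgeR) and -0.53 (adjusted p = 0.0541, edgeR). Hadhb was called without Trpm2-/- replicate 1 (adjusted p = 0.041, edgeR), and the difference between chain-length classes was not tested.

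Auxiliary enzymes let unsaturated fatty acids enter the same rounds. Eci1, an enoyl-CoA isomerase, had 208, 256 and 210 CPM in WT and 164, 138 and 117 CPM in Trpm2-/- libraries, with a log2 fold change of -0.69 (adjusted p = 0.0255, edgeR). Decr1, a dienoyl-CoA reductase, had 354, 417 and 342 CPM in WT and 236, 216 and 190 CPM in Trpm2-/- libraries, with a log2 fold change of -0.79 (adjusted p = 0.00932, edgeR). Both were lower with no overlap. Their calls rested on single libraries, since the adjusted p (edgeR) of Decr1 was 0.0568 without WT replicate 2 and that of Eci1 was 0.0502, 0.0602, 0.122 and 0.077 without Trpm2-/- replicates 2 and 4 and WT replicates 2 and 3.

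Electrons from the dehydrogenases pass through the electron transfer flavoprotein to ubiquinone. Etfa, its alpha subunit, had 234, 293 and 300 CPM in WT and 145, 120 and 123 CPM in Trpm2-/- libraries. It was lower, with a log2 fold change of -1.09 (SE 0.150, adjusted p = 0.00332, edgeR). Etfb, the beta subunit, had 75.9, 102 and 133 CPM in WT and 28.3, 85.3 and 26.9 CPM in Trpm2-/- libraries. Trpm2-/- replicate 2 lay within the WT range, and the log2 fold change of -1.15 (SE 0.412, adjusted p = 0.102, edgeR) became -1.91 without it (adjusted p = 0.00644, edgeR). Of the exon bases of Etfb, 58.2% overlap another annotated gene on the same strand, Gm45233, which had at most 0.137 CPM. How reads in the overlap were counted was not tested. Etfdh, which passes the electrons on to ubiquinone, had 113, 135 and 113 CPM in WT and 121, 80.1 and 86.2 CPM in Trpm2-/- libraries and was not called (log2 fold change -0.33, 95% interval -0.72 to 0.06).

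In peroxisomes, 8 of 11 genes were lower, against 7.28% of all genes tested, and the median log2 fold change was -0.87. The genotypes did not overlap for 9 genes, with Trpm2-/- below WT, against 16.8% of all genes tested. The members ranged from Hacl1 and Acox2, at 22.2% and 25.0% of the WT mean, to Ehhadh, at 99%. Acox2, the oxidase of bile acid intermediates and branched chains (chromosome 14, 8225511 to 8259353), had 99.5, 102 and 125 CPM in WT and 28.6, 25.4 and 27.7 CPM in Trpm2-/- libraries. Its log2 fold change was -2.0 (SE 0.140, adjusted p = 0.00126, edgeR), and the 3 Trpm2-/- values lay close together and far below WT. Acox3, an oxidase of branched chains, had 229, 290 and 282 CPM in WT and 117, 124 and 113 CPM in Trpm2-/- libraries. It was lower too, with a log2 fold change of -1.18 (SE 0.139, adjusted p = 0.00182, edgeR).

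The next peroxisomal steps are carried out by a pair of bifunctional enzymes, L- and D-specific. Ehhadh, the L-bifunctional enzyme (chromosome 16, 21761287 to 21787807), had 538, 532 and 620 CPM in WT and 847, 443 and 383 CPM in Trpm2-/- libraries. Trpm2-/- replicate 1 was above every WT library while replicates 2 and 4 were below, so the log2 fold change of -0.02 (95% interval -0.62 to 0.59, adjusted p = 0.979, edgeR) covers values on either side. It was -0.45 without Trpm2-/- replicate 1 and 0.21 without replicate 4. Hsd17b4, the D-bifunctional enzyme that also serves branched chains and bile acid intermediates, had 322, 356 and 345 CPM in WT and 275, 178 and 180 CPM in Trpm2-/- libraries. It was lower (log2 fold change -0.69, SE 0.185, adjusted p = 0.0402, edgeR), but the adjusted p (edgeR) was 0.0684, 0.141, 0.138, 0.0879 and 0.0999 without WT replicates 1, 2 and 3 and Trpm2-/- replicates 2 and 4.

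**Figure D3:**
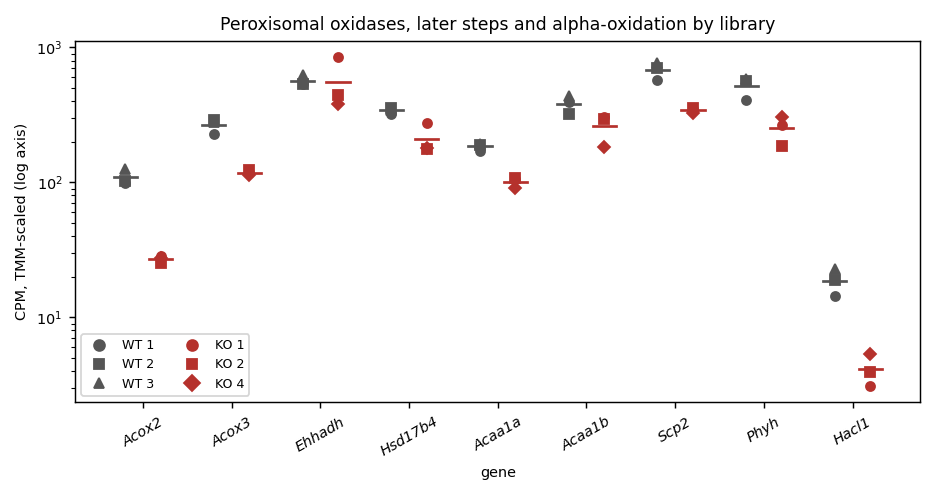
CPM on a log axis of peroxisomal oxidases, later enzymes and alpha-oxidation enzymes, with a point for each WT (grey) and Trpm2-/- (KO, red) library and a line at each mean. The Trpm2-/- points of Acox2 lie between 25.4 and 28.6 CPM, all below the WT points, whereas those of Ehhadh run from 383 to 847 CPM around WT.

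Thiolysis ends the round. Acaa1a, a thiolase of straight chains, had 172, 188 and 194 CPM in WT and 106, 108 and 90.5 CPM in Trpm2-/- libraries (log2 fold change -0.87, adjusted p = 0.00416, edgeR). Its close copy Acaa1b had 394, 320 and 435 CPM in WT and 303, 294 and 183 CPM in Trpm2-/- libraries (log2 fold change -0.56, adjusted p = 0.115, edgeR). Of their 75-base windows, 12.6% for Acaa1a and 32.3% for Acaa1b also occur in other genes, chiefly in each other, so the division of reads between them is uncertain. Scp2, which includes the thiolase of branched chains, had 575, 701 and 768 CPM in WT and 348, 354 and 327 CPM in Trpm2-/- libraries. It was lower without overlap (log2 fold change -0.99, adjusted p = 0.00475, edgeR), and 25.6% of its windows also occur elsewhere, mainly in the pseudogene Scp2-ps2.

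Alpha-oxidation removes the methyl-branched block of phytanic acid before beta-oxidation can start. Phyh, the phytanoyl-CoA hydroxylase, had 409, 564 and 581 CPM in WT and 267, 185 and 304 CPM in Trpm2-/- libraries. It was lower (log2 fold change -1.04, SE 0.212, adjusted p = 0.0145, edgeR), with an adjusted p of 0.0625 and 0.0656 without WT replicates 2 and 3 (edgeR). Hacl1, the lyase that cleaves the hydroxylated product (chromosome 14, 31598730 to 31641286), had 14.5, 18.9 and 22.8 CPM in WT and 3.12, 3.96 and 5.35 CPM in Trpm2-/- libraries. Its log2 fold change of -2.17 (SE 0.264, adjusted p = 0.00207, edgeR) was close to that of Acox2. Without Trpm2-/- replicate 1 the log2 fold change of Hacl1 was -2.0 and that of Acox2 -2.04, and with limma on log2(FPKM + 1) they were -1.3 and -1.83. Of its exon bases 33.3% overlap Btd and Gm49387, and Btd, on the opposite strand, had 79.3 to 96.1 CPM in WT and 48.1 to 60.7 CPM in Trpm2-/- libraries.

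The remaining peroxisomal members handle unsaturated chains and export. Decr2, the peroxisomal dienoyl-CoA reductase, had 144, 156 and 130 CPM in WT and 137, 103 and 120 CPM in Trpm2-/- libraries and was not called (log2 fold change -0.25, 95% interval -0.58 to 0.07). Its mitochondrial counterpart Decr1 was lower, as given above, and the difference between these genes was not tested. Crot, which makes carnitine esters of shortened chains for transfer to mitochondria, had 231, 244 and 284 CPM in WT and 191, 143 and 155 CPM in Trpm2-/- libraries (log2 fold change -0.63, adjusted p = 0.0294, edgeR). That call was lost without Trpm2-/- replicate 2 or 4 or WT replicate 2 or 3 (adjusted p 0.0622, 0.0684, 0.0943 and 0.147, edgeR).

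Of the 4 genes of both organelles, 3 were lower, against 7.28% of all genes tested, and the median log2 fold change was -0.67. The genotypes did not overlap for any of the 4, with Trpm2-/- below WT, against 16.8% of all genes tested. Amacr, the racemase that prepares branched chains for oxidation, had 66.1, 75.6 and 82.6 CPM in WT and 40.2, 41.0 and 35 CPM in Trpm2-/- libraries (log2 fold change -0.95, adjusted p = 0.0038, edgeR). Mlycd, which breaks down malonyl-CoA, the inhibitor of Cpt1a, had 70.8, 74.0 and 86.3 CPM in WT and 37.9, 51.2 and 40.5 CPM in Trpm2-/- libraries (log2 fold change -0.83, adjusted p = 0.00898, edgeR). Crat, which exchanges acetyl groups between carnitine and coenzyme A, had 154, 159 and 159 CPM in WT and 114, 113 and 106 CPM in Trpm2-/- libraries (log2 fold change -0.50, adjusted p = 0.0237, edgeR). These 3 were lower, though Mlycd was not called without WT replicate 3 (adjusted p = 0.0514, edgeR) and Crat was not called without any 1 of Trpm2-/- replicate 4 and WT replicates 1, 2 and 3 (adjusted p 0.0559, 0.0541, 0.116 and 0.124, edgeR). Eci2, an isomerase for unsaturated chains, had 200, 263 and 251 CPM in WT and 170, 185 and 158 CPM in Trpm2-/- libraries, with a log2 fold change of -0.48 (adjusted p = 0.0634, edgeR). It was called without WT replicate 1 (adjusted p = 0.0436, edgeR).

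The organelles were compared as sums of FPKM, a level per length. The 16 mitochondrial genes summed to 1281, 1536 and 1483 FPKM in WT and 951, 813 and 768 FPKM in Trpm2-/- libraries, so that the Trpm2-/- mean was 58.9% of WT. The 11 peroxisomal genes summed to 922, 1013 and 1111 FPKM in WT and 791, 582 and 576 FPKM in Trpm2-/- libraries, or 64.0% of WT. In either organelle every Trpm2-/- library was below every WT library, and Trpm2-/- replicate 1 was the nearest to WT. Peroxisomal genes took 41.8%, 39.7% and 42.8% of the combined sum in WT and 45.4%, 41.7% and 42.9% in Trpm2-/- libraries. These shares overlapped (41.5% ± 1.57 and 43.3% ± 1.89, SD, n = 3 each), and their difference of 1.86 percentage points ranged from 0.818 to 2.67 when each library was left out. It was 1.0 with summed CPM and 1.45 without Acaa1b. The 3 highest genes made up 57.3% of the peroxisomal and 39.0% of the mitochondrial WT sum, so few genes weigh heavily. Ehhadh alone had 158, 156 and 181 FPKM in WT and 250, 130 and 114 FPKM in Trpm2-/- libraries. Its mean was 165 FPKM in either genotype, so it made up more of the lower Trpm2-/- peroxisomal sum. The higher peroxisomal share in Trpm2-/- libraries therefore depends on Ehhadh. The share without Ehhadh was not computed, so the direction of the difference is not settled. The median log2 fold changes ran the other way from the sums, at -0.87 for peroxisomal and -0.78 for mitochondrial genes. No test of the share was made, and its difference was close in size to the SD within either genotype.

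**Figure D4:**
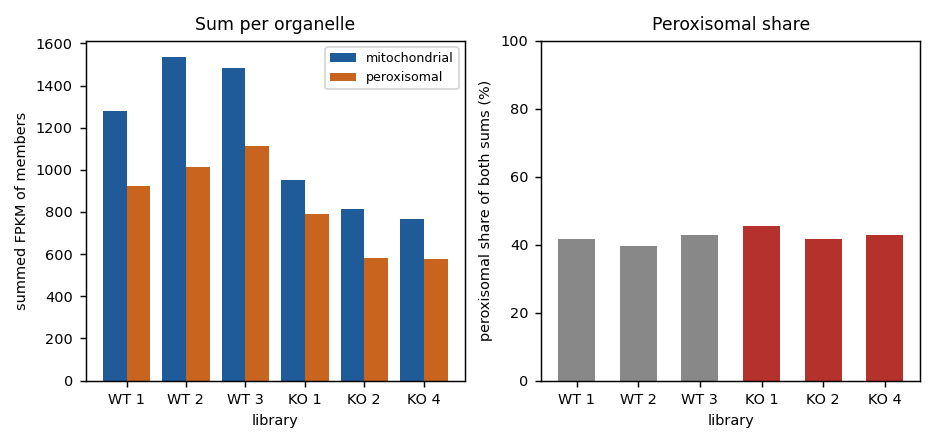
Bars give the summed FPKM of the mitochondrial and peroxisomal members in each library (left) and the peroxisomal share of the combined sum in percent (right). Both sums are lower in each Trpm2-/- library than in any WT library, while the shares overlap between 39.7% and 45.4%.

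Levels were also compared between members in FPKM. In WT the highest mean levels were those of Phyh at 239 ± 43.1 FPKM and Acaa2 at 221 ± 16.9 FPKM (SD, n = 3), which do not differ beyond their spread. Ehhadh stood at 165 ± 14 FPKM in WT, in position 6, and at 165 ± 74.3 FPKM in Trpm2-/- kidneys. Its levels there were 250, 130 and 114 FPKM, so it was the highest member in Trpm2-/- replicate 1, whereas Acaa1b was at 131 FPKM in replicate 2 and Phyh at 142 FPKM in replicate 4. Acadm, in position 8 in WT at 145 ± 17.2 FPKM, had 57.8 ± 3.31 FPKM in Trpm2-/- kidneys, in position 11. Acox2 went from 25.7 ± 3.17 to 6.49 ± 0.422 FPKM. The lowest levels in WT were those of Acsl3, Hacl1 and Fabp1, at 3.35 ± 0.296, 3.31 ± 0.722 and 3.00 ± 0.477 FPKM, which lie within each other's spread.

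The wider pathway was covered by 94 further genes, of which 91 were tested. Among those tested, 33 were lower and 0 were higher, against 7.28% and 4.74% of all genes tested. Their median log2 fold change was -0.39, against 0.02 over all genes tested. Other peroxisomal enzymes were lower for 12 of 15, with a median of -0.80. They include Eci3 (log2 fold change -2.52), Hao2 (-2.2), Pecr (-1.73) and Nudt19 (-1.56), of which Hao2 oxidises hydroxy acids and Nudt19 cleaves coenzyme A. Proteins of the peroxisomal membrane and of peroxisome biogenesis were lower for 3 of 18 tested, with a median of -0.23. Pex16, Pex7 and Pex2 were those 3 (log2 fold changes -0.94, -0.66 and -0.45), where Pex7 is the receptor of the N-terminal import signal. Other mitochondrial enzymes were lower for 5 of 8, with a median of -0.83, among them Acad12 (-1.30), Acad10 (-1.16), Ech1 (-0.96) and Hsd17b10 (-0.73).

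**Figure D5:**
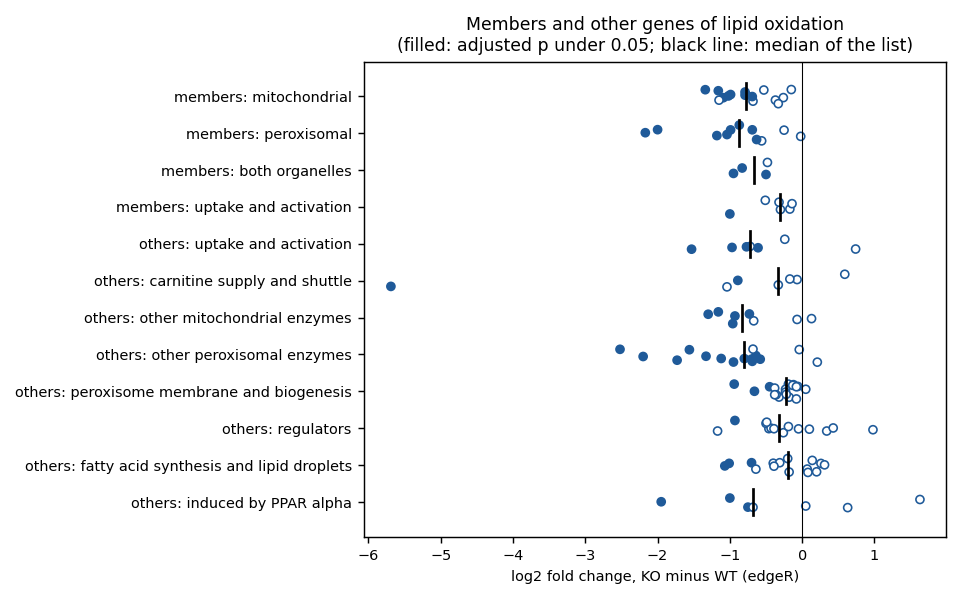
Log2 fold change, Trpm2-/- (KO) minus WT, of members and wider pathway genes by list, with filled points for an adjusted p under 0.05 (edgeR) and a black line at each median. The leftmost point is Bbox1, whose fitted value rests on 1 count in the Trpm2-/- libraries. Other peroxisomal enzymes have a median of -0.80 and proteins of the peroxisomal membrane and biogenesis a median of -0.23.

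Of 7 further genes of uptake and activation 4 were lower, with log2 fold changes of -1.53 for the carrier Fabp4, -0.97 for Slc27a2, -0.77 for the acyl-CoA binding protein Dbi and -0.61 for Slc27a1. Slc27a2, the main fatty acid transporter of the proximal tubule, had 2298, 2503 and 2989 CPM in WT and 1200, 1380 and 1407 CPM in Trpm2-/- libraries, without overlap (adjusted p = 0.00774, edgeR). Of 7 genes of carnitine supply and shuttle 2 were lower, Bbox1 and Aldh9a1, both of the synthesis of carnitine. Both lists stand against 7.28% called lower over all genes tested. Bbox1 had few reads, with 19, 24 and 29 counts in WT and 1, 0 and 0 counts in Trpm2-/- libraries (adjusted p = 0.00332, edgeR), and no fold is given. Slc25a20, which carries acylcarnitines across the inner membrane, had 121, 132 and 139 CPM in WT and 112, 102 and 97.4 CPM in Trpm2-/- libraries (log2 fold change -0.33, adjusted p = 0.119, edgeR).

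Regulators were lower for 1 of 14 (7.14%), Sirt3, a mitochondrial deacetylase (log2 fold change -0.93, adjusted p = 0.00333, edgeR). This share was near the 7.28% called lower over all genes tested. Ppara, which encodes PPAR alpha, had 30.2, 29.2 and 16.4 CPM in WT and 84.5, 40.8 and 24.2 CPM in Trpm2-/- libraries. The genotypes overlapped, and its log2 fold change of 0.98 (SE 0.403, adjusted p = 0.146, edgeR) was not called. Ppargc1a, its coactivator, had 39.7, 38.6 and 49.1 CPM in WT and 30.4, 22.1 and 39.9 CPM in Trpm2-/- libraries (log2 fold change -0.46, adjusted p = 0.182, edgeR). Of 7 tested genes known to be induced by PPAR alpha, 3 were lower, namely Cyp4a14 (-1.95), Cyp4a10 (-1.0) and Vnn1 (-0.75), while Pdk4 had a log2 fold change of 0.63 that was not called (adjusted p = 0.0576, edgeR). Ucp3, a mitochondrial carrier of the same list named here after its values were seen, had 2.34, 1.35 and 0.982 CPM in WT and 6.24, 6.35 and 1.93 CPM in Trpm2-/- libraries. The genotypes overlapped, and the log2 fold change of 1.63 (SE 0.506, adjusted p = 0.0661, edgeR) was not called. At the threshold of the study's methods, Ucp3 was the 1 wider pathway gene that was higher, and 13 were lower. Over all genes tested, 3.50% were higher and 4.10% lower at that threshold. Fatty acid synthesis and lipid droplets had 3 of 15 genes lower, Plin5 (-1.07), Scd1 (-1.01) and Dgat2 (-0.70), with a median of -0.20 over the list.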

How the data were processed

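The authors deposited whole-number read counts per gene, without normalization, and FPKM values for the same genes, which the authors made by scaling for gene length and library total. HISAT2, StringTie and mm9 are named in the submitters' processing notes, without roles here. Gene positions in the tables equal those of GENCODE M21 (GRCm38) for 98.3% of 54409 shared identifiers and 33 of 37 members, so GRCm38 was used. Strandedness is not given in the sources used here.

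Counts were filtered with filterByExpr, scaled by TMM and tested between genotypes with the two-sided quasi-likelihood test of edgeR 4.0.16 in R 4.3.3 with Benjamini-Hochberg adjustment. Standard errors were derived from the F statistic of each gene, and 95% intervals from them with the t quantile. Levels between genes use FPKM. Exact tests of single values were not used, since 3 against 3 libraries cannot go below p = 0.1. Python 3.11.15 searched sequences. The labels give no batch. Replicates of a group differed by more than sampling noise, so all 6 libraries were counted. Depth limits low genes, and 3 counts were taken as the floor.

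The members and lists were chosen with earlier results of these data known. Members were all named. Of each wider list, up to 4 genes with the smallest p were named, plus Ppara, Ppargc1a, Slc25a20 and Slc27a2, and 1 further gene that is not reported here. Alternatives were DESeq2 1.42.0 (test and size factors), upper-quartile scaling, no filter, limma 3.58.1 (voom, and log2 of FPKM plus 0.1 or 1), removal of the mitochondrial genome, a replicate block and leaving out each library.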

Additional observations from a re-analysis of the deposited data

How the results depend on the processing

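The number of members called lower was 14 to 24 when each library was left out, 25 with the Wald test of DESeq2, 27 without the filter and 21 with DESeq2 size factors, upper-quartile scaling, limma on either scale or without the mitochondrial genome. Peroxisomal members called lower numbered 5 to 8 when each library was left out, with 5 without WT replicate 2 and 5 without WT replicate 3, and mitochondrial members 7 to 11. Wider pathway genes called lower numbered 18 to 34, with 18 without WT replicate 3. Over all genes, 470 to 1240 were called lower and 160 to 819 higher when each library was left out, with 470 and 160 without WT replicate 3, 521 and 176 without WT replicate 2 and 421 higher without Trpm2-/- replicate 1. Without the filter, 1262 genes were called higher. The log2 fold change of Ehhadh turned to 0.01 with upper-quartile scaling, 0.12 and 0.21 without Trpm2-/- replicates 2 and 4 and 0.06 without WT replicate 3, within a range of -0.45 to 0.21 over the libraries left out, and that of Fabp1 to 0.17 without Trpm2-/- replicate 2, within a range of -0.85 to 0.17. The cause of these changes was not tested, and leaving out a library also lowers the number of samples. The other 35 members stayed below 0 in all 15 alternatives. The median log2 fold change of all genes was 0.02 with DESeq2 size factors and 0.06 with upper-quartile scaling.

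Replicate numbers 1 and 2 occur in both genotypes, but nothing in the labels ties these mice beyond the number. The deviations of same-numbered libraries correlated at 0.096 and -0.0027, and those of differently numbered pairs at -0.291 to 0.244. These correlations cannot exclude a shared origin. With the replicate block, 14 members, 20 wider pathway genes, 661 genes lower and 341 genes higher were called, and the log2 fold change of Ehhadh was 0.20. WT replicate 3 and Trpm2-/- replicate 4 each stood alone in a block. The genotype difference in that fit therefore came only from replicates 1 and 2. Lowly expressed members such as Fabp1 are limited by depth.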
